A study of Sus scrofa with 5 samples.

Results

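The 49 genes described here carry out or switch on DNA replication. They were chosen by symbol, with earlier results of these data known. All 49 were found among the 30822 genes of the deposited tables, each once and each annotated as protein-coding. RNA came from ovarian follicles of female pigs (Sus scrofa) of the Indian Ghoongroo breed, with 3 libraries of large and 2 of small follicles. No treatment or genetic change separates the groups, which differ in follicle size. The labels call the replicates biological. The sources used here do not give follicle diameters, ages, cycle stage, or the number of animals and follicles behind a library. The p-values therefore cover the spread between these 5 samples and no more. The question set by the design is how gene expression differs with follicle size.

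Replication begins when the origin recognition complex, CDC6 and CDT1 load the MCM helicase onto DNA, and CDC45 and the GINS complex then activate it. Polymerase alpha with primase lays primers, polymerases delta and epsilon extend them while held by the sliding clamp PCNA, and nucleases and a ligase join the pieces. Much of this machinery is transcribed in waves under E2F factors as cells enter S phase. In the ovary, granulosa cells of growing follicles divide under follicle-stimulating hormone and estradiol and leave the cell cycle when they luteinize.

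Most replication genes had lower values in large than in small follicles, by at most 2.57-fold for all but POLE, and none passed the test over all genes. POLE, the catalytic subunit of the leading-strand polymerase, averaged 0.966 ± 0.140 FPKM in large and 3.27 ± 0.849 FPKM in small follicles (SD, n = 3 and 2), a 3.39-fold lower mean. MCM2, MCM5, POLD1, ORC1, UHRF1 and RRM2 also had means 1.86 to 2.57 times lower in large follicles. DUT, RFC2, RPA3, POLD2, PRIM2, ORC6 and GINS3 had large over small ratios of the means between 0.911 and 1.18. FPKM is a fragment count scaled by gene length and library total, as the authors computed it, so levels are per length. In whole follicles, fewer cells of a type and less RNA per cell cannot be told apart.

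The test was limma's moderated two-sided test on log2(FPKM + 1), large minus small. A gene entered it when 2 or more libraries reached 1 FPKM. Of the 49 genes, 48 passed that filter and CDC6 did not. Limma called 0 of the 48 at a Benjamini-Hochberg adjusted p under 0.05, where 0.978% of all 13087 genes tested were called, 70 higher (0.535%) and 58 lower (0.443%). At an unadjusted p under 0.05, limma had 18 of the 48 lower and 0 higher, against 5.67% of all genes lower and 4.76% higher. That count of 18 was 10 without large follicle replicate 2, against 5.005% of all genes lower in that fit. Leaving out small follicle replicate 2 leaves 1 small follicle library, so effect sizes alone are given for it. The median log2 fold change of the 48 was then -0.27, against 0.09 over all genes. With all libraries these medians were -0.48 and -0.08. In 28 of the 48 every large follicle library was below both small follicle libraries, against 15.2% of all genes, and in 0 every one was above, against 10.9%. Fitted values were lower in large follicles for 45 of the 48, against 60.1% of all genes, and for 46 of all 49 when no filter was applied. POLE2, which passed the filter through the small follicle libraries alone, is among the 18 lower at an unadjusted p, the 28 not overlapping and the 45 with lower fitted values; without it these counts were 17, 27 and 44 of 47.

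**Figure D1:**
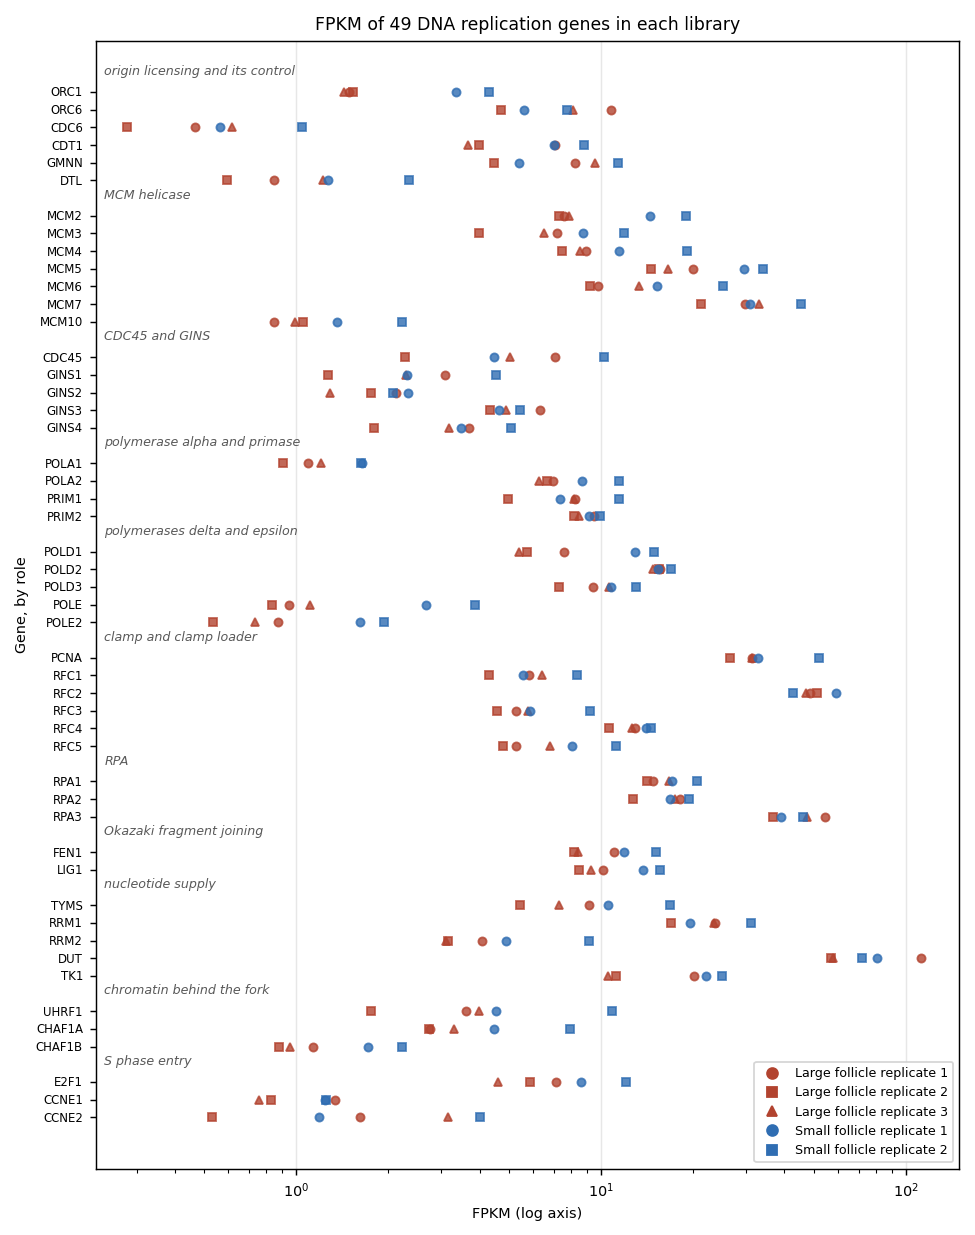
FPKM (log axis) of the 49 replication genes, grouped by role, with 1 point for each of the 3 large and 2 small follicle libraries. In 28 of the 48 tested genes all large follicle points lie left of both small follicle points.

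DUT was the most abundant, at 112, 56.7 and 57.7 FPKM in large and 80.3 and 72.0 FPKM in small follicle libraries. CDC6, which helps load the helicase, was the least abundant, at 0.467, 0.280 and 0.616 FPKM in large and 0.564 and 1.05 FPKM in small follicle libraries, so it lay just outside the filter. Just inside it, POLE2 reached 1 FPKM in the small follicle libraries alone. POLE, MCM10, CHAF1B, DTL and CCNE1 reached it in those and in 1 large follicle library, so they too passed with the help of the small follicle libraries. Of these, POLE and CHAF1B are among the 18 lower at an unadjusted limma p. POLE, MCM10, CHAF1B and DTL are among the 28 not overlapping. Because POLE2 passed only where it was higher, its difference is a description. The number of replication genes at 1 FPKM or more was 44, 41 and 44 of 49 in the large and 48 and 49 in the small follicle libraries.

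A whole-library shift ran through these values. Of the 49 genes, 37 had their lowest value in large follicle replicate 2 and 41 their highest in small follicle replicate 2. Over the 48 tested genes the mean log2(FPKM + 1) was 3.04, 2.66 and 2.93 in large and 3.17 and 3.57 in small follicle libraries, so the groups did not overlap. The mean over all 13087 genes was 3.33, 3.11 and 3.44 in large and 3.19 and 3.52 in small follicle libraries, with the same 2 libraries at the ends. Taking the mean over all genes away left -0.29, -0.46 and -0.51 in large and -0.02 and 0.05 in small follicle libraries. Median-of-ratios scaling, which divides each library by a common factor, gave means of 3.02, 2.86 and 2.81 in large and 3.29 and 3.33 in small follicle libraries. The spread within each group was smaller after it (SD 0.11 against 0.20 in large and 0.03 against 0.28 in small), and 32 of the 48 (31 of 47 without POLE2) then had all large below both small follicle libraries, against 14.5% of all genes.

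**Figure D2:**
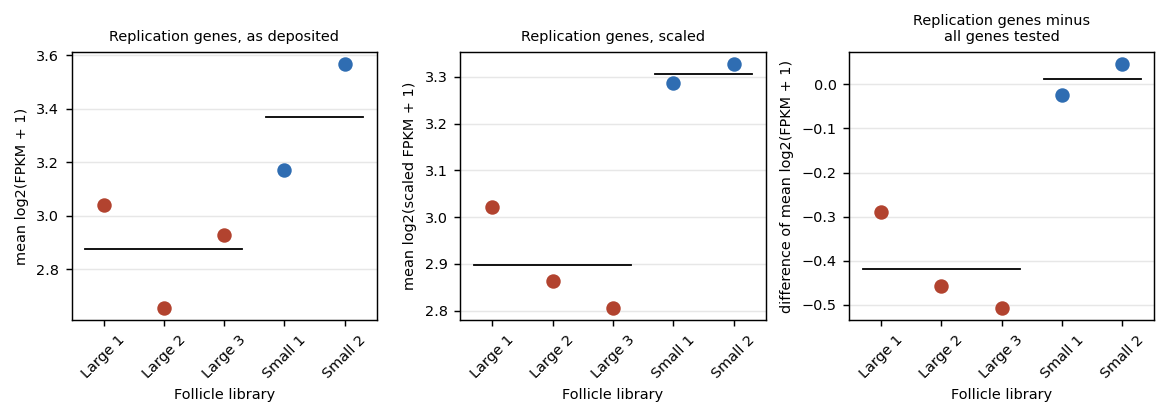
Mean log2(FPKM + 1) of the 48 tested replication genes in each library, as deposited, after median-of-ratios scaling, and minus the mean of all genes tested. Points are libraries and lines are group means; in each panel the 3 large follicle points lie below the 2 small follicle points.

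Among the genes of origin licensing, ORC1 stood lowest in large follicles and ORC6, a subunit of the same complex, did not. ORC1 (gene 100520746, Sscrofa11.1 chromosome 6, 159819302 to 159852306) had 1.49, 1.53 and 1.43 FPKM in large against 3.34 and 4.30 FPKM in small follicle libraries. The large follicle libraries were close together and all below the small ones, with a log2 fold change of -0.95 (SE 0.27, limma adjusted p = 0.182). ORC6 had 10.8, 4.69 and 8.09 FPKM in large and 5.61 and 7.72 FPKM in small follicle libraries, so its groups overlapped (log2 fold change 0.16, SE 0.35, limma adjusted p = 0.933).

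CDT1 brings the helicase to the origin, GMNN (geminin) blocks CDT1, and DTL directs CDT1 to destruction. CDT1 had 7.06, 3.97 and 3.65 FPKM in large and 7.02 and 8.81 FPKM in small follicle libraries, with large follicle replicate 1 at the level of the lower small follicle library. DTL had 0.848, 0.596 and 1.23 FPKM in large against 1.28 and 2.35 FPKM in small follicle libraries, on 25 to 54 fragments a library in large and 51 or 99 in small. Its groups did not overlap, though large follicle replicate 3 came close to small follicle replicate 1. GMNN, at 8.24, 4.46 and 9.55 FPKM in large and 5.38 and 11.4 FPKM in small follicle libraries, varied as much within a group as between groups. The log2 fold changes of CDT1, DTL and GMNN were -0.63, -0.56 and -0.13 (limma adjusted p = 0.560, 0.567 and 0.950).

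All 7 MCM genes had lower fitted values in large follicles, against 60.1% of all genes. In 6 of them, all but MCM7, every large follicle library was below both small ones, against 15.2% of all genes. MCM2 to MCM7 form the ring-shaped replicative helicase, and MCM10 helps to start it. MCM2 (gene 100519111, chromosome 13, 72630378 to 72651270) had the smallest limma p of the 48 genes. Its values were 7.55, 7.27 and 7.84 FPKM in large against 14.5 and 19.0 FPKM in small follicle libraries, a log2 fold change of -1.04 (SE 0.25, limma adjusted p = 0.0991). The 3 large follicle libraries were close together, and the lower small follicle library was well above them.

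MCM5 (gene 100624915, on a scaffold with no chromosome, 1966090 to 1983967) had 20.1, 14.6 and 16.6 FPKM in large against 29.5 and 34.1 FPKM in small follicle libraries (log2 fold change -0.87, SE 0.23, limma adjusted p = 0.144). MCM6 had 9.75, 9.21 and 13.3 FPKM in large against 15.3 and 25.1 FPKM in small follicle libraries. For MCM5 the gap between the groups was wider than the spread of either, and for MCM6 it was narrower. MCM4 had 8.97, 7.45 and 8.53 FPKM in large against 11.4 and 19.2 FPKM in small follicle libraries. MCM3 had 7.17, 3.97 and 6.48 FPKM in large against 8.72 and 11.9 FPKM in small follicle libraries. For MCM4 the 2 small follicle libraries lay further apart than the groups did. The log2 fold changes of MCM6, MCM4 and MCM3 were -0.83, -0.77 and -0.74 (limma adjusted p = 0.312, 0.348 and 0.449).

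MCM7 was the most abundant subunit, at 29.7, 21.3 and 32.9 FPKM in large and 30.8 and 45.3 FPKM in small follicle libraries, and its groups overlapped (log2 fold change -0.43, SE 0.26, limma adjusted p = 0.669). MCM10 was the scarcest, at 0.847, 1.06 and 0.993 FPKM in large against 1.36 and 2.23 FPKM in small follicle libraries (log2 fold change -0.49, SE 0.26, limma adjusted p = 0.592). By mean FPKM the order of the helicase subunits was MCM7, MCM5, MCM6, MCM4, MCM2 and MCM3 in large and MCM7, MCM5, MCM6, MCM2, MCM4 and MCM3 in small follicles. Ranges of neighbours overlapped across libraries, but the order of large follicles held within every large follicle library. The order of small follicles held within both small follicle libraries except for MCM2 and MCM4. There MCM2 had 14.5 and 19.0 FPKM and MCM4 had 11.4 and 19.2 FPKM, so their order in small follicles is not resolved.

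None of the 5 genes of CDC45 and GINS, the partners that activate the MCM ring, separated the groups. CDC45 had 7.05, 2.28 and 5.03 FPKM in large and 4.47 and 10.2 FPKM in small follicle libraries, a log2 fold change of -0.53 (SE 0.44, limma adjusted p = 0.776). The spread inside each group was wider than the difference between the group means. GINS3, the most abundant GINS gene, had 6.30, 4.33 and 4.89 FPKM in large and 4.64 and 5.42 FPKM in small follicle libraries (log2 fold change 0.02, SE 0.28, limma adjusted p = 0.990). For GINS1, GINS2 and GINS4 the log2 fold changes were -0.45, -0.24 and -0.46 (limma adjusted p = 0.764, 0.855 and 0.730).

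The catalytic subunits of the main replicative polymerases stood lower in large follicles, while the accessory subunit POLD2 had nearly equal values. POLE (gene 100620959, chromosome 14, 22798146 to 22852818) had 0.946, 0.837 and 1.11 FPKM in large against 2.67 and 3.87 FPKM in small follicle libraries. Those values rest on 86, 66 and 92 fragments in large, against 201 and 307 in small. The highest large follicle value was well under the lowest small follicle value, with a log2 fold change of -1.11 (SE 0.27, limma adjusted p = 0.109). POLE was the only one of the 48 to be called in another fit, at a limma adjusted p of 0.0365 with median-of-ratios scaling and 0.0432 with quantile normalization; over all alternatives its adjusted p ranged from 0.0365 to 0.590.

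POLD1 (gene 100525752, chromosome 6, 55247799 to 55272087), the catalytic subunit of polymerase delta, had 7.54, 5.74 and 5.40 FPKM in large against 13.0 and 14.9 FPKM in small follicle libraries. Its log2 fold change was -1.06 (SE 0.26, limma adjusted p = 0.120), and the groups were far apart relative to their spread. POLD2, which links POLD1 to the other delta subunits, had 15.6, 15.5 and 14.8 FPKM in large and 15.4 and 17.0 FPKM in small follicle libraries (log2 fold change -0.08, SE 0.22, limma adjusted p = 0.950). With median-of-ratios scaling and with quantile normalization the POLD2 difference had the other sign, at 0.01 and 0.00. POLD3 binds PCNA; it had 9.45, 7.27 and 10.7 FPKM in large and 10.8 and 13.1 FPKM in small follicle libraries. POLE2, the second subunit of polymerase epsilon, had 0.875, 0.534 and 0.736 FPKM in large against 1.62 and 1.95 FPKM in small follicle libraries, on 9 to 17 fragments a library in large and 26 or 33 in small. POLD3 groups barely separated, with a log2 fold change of -0.36 (SE 0.26, limma adjusted p = 0.738). For POLE2, described without a test, the log2 fold change was -0.70.

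Polymerase alpha and primase, which make the RNA-DNA primers, differed less. POLA2 had 6.95, 6.66 and 6.27 FPKM in large against 8.64 and 11.5 FPKM in small follicle libraries, and POLA1, the catalytic subunit, had 1.10, 0.905 and 1.21 FPKM in large against 1.65 and 1.63 FPKM in small follicle libraries. Neither gene had overlapping groups. PRIM2, the large primase subunit, had 9.51, 8.19 and 8.44 FPKM in large and 9.17 and 9.95 FPKM in small follicle libraries, with overlap, as had PRIM1. The log2 fold changes were -0.53 for POLA2, -0.35 for POLA1, -0.36 for PRIM1 and -0.12 for PRIM2 (limma adjusted p = 0.549, 0.722, 0.795 and 0.929).

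PCNA, the sliding clamp, and 3 subunits of its loader had groups that did not overlap, by small margins. Of all genes, 15.2% were lower in large follicles without overlap. PCNA (gene 692192, chromosome 17, 14137746 to 14142584) had 31.4, 26.5 and 31.3 FPKM in large and 32.8 and 51.9 FPKM in small follicle libraries. The lower small follicle library was close to the large ones, and the log2 fold change was -0.46 (SE 0.24, limma adjusted p = 0.577). RFC5 had 5.25, 4.77 and 6.82 FPKM in large against 8.06 and 11.2 FPKM in small follicle libraries, the largest difference of the loader (log2 fold change -0.68, SE 0.28, limma adjusted p = 0.445). RFC3 had 5.27, 4.55 and 5.75 FPKM in large and 5.87 and 9.22 FPKM in small follicle libraries, and RFC4 had 12.9, 10.6 and 12.6 FPKM in large and 14.1 and 14.6 FPKM in small follicle libraries. After median-of-ratios scaling the RFC4 groups overlapped.

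RFC2, the most abundant loader subunit, had 48.4, 51.1 and 47.2 FPKM in large and 59.1 and 42.6 FPKM in small follicle libraries, so that the small follicle libraries lay on either side of the large ones. Its log2 fold change was -0.04 (SE 0.21, limma adjusted p = 0.979), and 0.06 with median-of-ratios scaling. RFC1, the largest loader subunit, had -0.28 (SE 0.30) with overlap.

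The 3 subunits of RPA, which coats single-stranded DNA, differed little. RPA3 had 54.4, 36.6 and 47.3 FPKM in large and 38.9 and 46.1 FPKM in small follicle libraries (log2 fold change 0.10, SE 0.23, limma adjusted p = 0.936). RPA1 had 14.8, 14.1 and 16.7 FPKM in large and 17.1 and 20.7 FPKM in small follicle libraries, without overlap but with a small gap. The log2 fold changes of RPA1 and RPA2 were -0.29 and -0.18 (limma adjusted p = 0.755 and 0.884).

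FEN1, which trims the flaps of Okazaki fragments, and LIG1, which seals them, were both lower in all large follicle libraries. The same held for 15.2% of all genes. LIG1 had 10.2, 8.45 and 9.30 FPKM in large against 13.8 and 15.7 FPKM in small follicle libraries, a log2 fold change of -0.61 (SE 0.24, limma adjusted p = 0.389). FEN1 had 11.06, 8.18 and 8.43 FPKM in large against 11.9 and 15.2 FPKM in small follicle libraries (log2 fold change -0.51, SE 0.26, limma adjusted p = 0.555). For LIG1 the gap between groups was wider than either group; for FEN1 it was narrower.

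Of the 5 genes of nucleotide supply, TYMS, RRM2 and TK1 had lower values in all large follicle libraries, while RRM1 and DUT overlapped. Among all genes, 15.2% had lower values in that way. TYMS (gene 100627209, chromosome 6, 105642730 to 105660279), which makes thymidylate, had 9.11, 5.44 and 7.27 FPKM in large against 10.5 and 16.9 FPKM in small follicle libraries. RRM2, the subunit of ribonucleotide reductase that is made in S phase, had 4.07, 3.15 and 3.11 FPKM in large against 4.89 and 9.14 FPKM in small follicle libraries. In both, small follicle replicate 2 stood apart from every other library. TK1, the thymidine kinase of dividing cells, had 20.2, 11.2 and 10.6 FPKM in large against 22.2 and 25.1 FPKM in small follicle libraries, with large follicle replicate 1 near the small ones. The log2 fold changes of TYMS, RRM2 and TK1 were -0.82, -0.81 and -0.77 (limma adjusted p = 0.359, 0.409 and 0.379).

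RRM1, the large subunit of ribonucleotide reductase, had a log2 fold change of -0.21 (SE 0.27, limma adjusted p = 0.875). DUT, which removes dUTP, had -0.09 (SE 0.30, limma adjusted p = 0.959) and 0.01 with median-of-ratios scaling. Large follicle replicate 1 held the highest DUT value of all 5 libraries, so the groups overlapped.

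The 3 genes that restore chromatin behind the fork all had non-overlapping groups, lower in large follicles, against 15.2% of all genes. UHRF1 (gene 100511003, chromosome 2, 73898061 to 73937727), which guides maintenance of DNA methylation, had 3.61, 1.76 and 3.99 FPKM in large against 4.52 and 10.9 FPKM in small follicle libraries. CHAF1A, a subunit of the histone-depositing factor CAF-1, had 2.75, 2.73 and 3.30 FPKM in large against 4.47 and 7.91 FPKM in small follicle libraries. CHAF1B, its partner, had 1.14, 0.883 and 0.957 FPKM in large against 1.73 and 2.23 FPKM in small follicle libraries. Small follicle replicate 2 was the highest library for both UHRF1 and CHAF1A, and without it their log2 fold changes were -0.47 and -0.48. Their log2 fold changes were -1.02 for UHRF1, -0.83 for CHAF1A and -0.58 for CHAF1B, with SEs of 0.40, 0.31 and 0.25 and limma adjusted p values of 0.401, 0.359 and 0.470.

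Of the 3 genes of S phase entry, E2F1 separated the groups and the E-type cyclins did not. E2F1, a transcription factor of replication genes, had 7.10, 5.86 and 4.61 FPKM in large against 8.62 and 12.1 FPKM in small follicle libraries (log2 fold change -0.73, SE 0.29, limma adjusted p = 0.409). CCNE1 had 1.34, 0.828 and 0.756 FPKM in large and 1.25 and 1.25 FPKM in small follicle libraries. CCNE2 had 1.62, 0.532 and 3.14 FPKM in large and 1.19 and 4.003 FPKM in small follicle libraries. Both cyclins, which activate the kinase CDK2, overlapped, and CCNE2 varied more within each group than between them (log2 fold changes -0.20 and -0.37, limma adjusted p values 0.881 and 0.875).

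**Figure D3:**
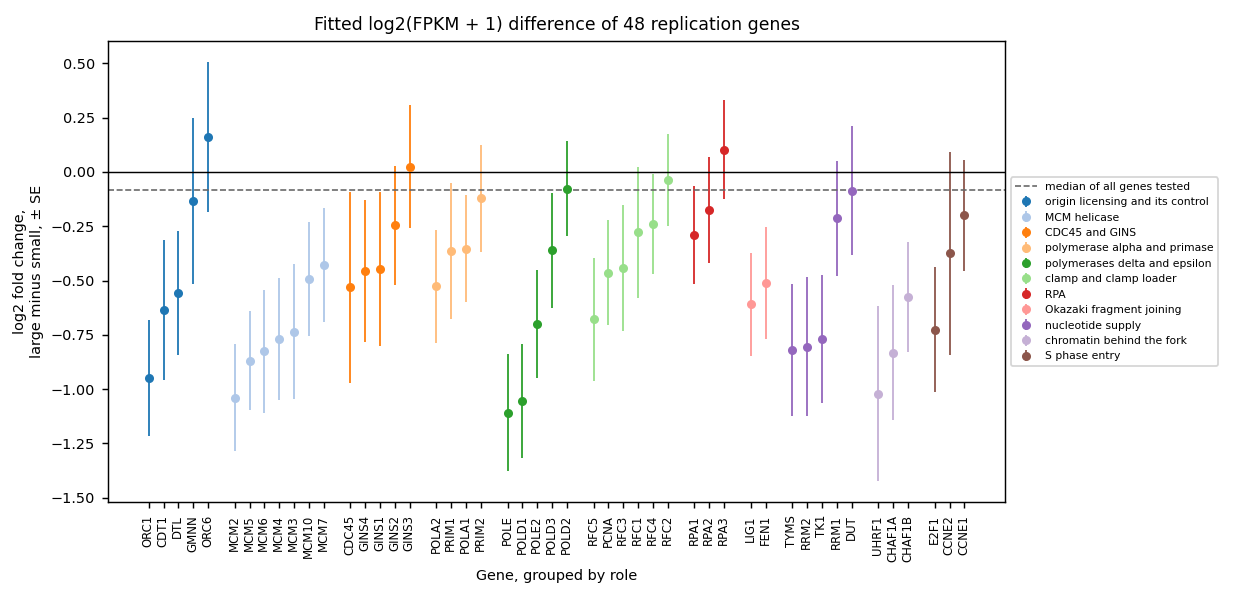
Log2 fold change of log2(FPKM + 1), large minus small follicles, with its SE, for the 48 tested replication genes by role. Points run from -1.11 for POLE to 0.16 for ORC6, and 45 of 48 lie below 0; the dashed line is the median of all genes tested, -0.08.

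By role, the median log2 fold change was lowest for chromatin restoration (-0.83), the MCM genes (-0.77) and nucleotide supply (-0.77). Polymerases delta and epsilon followed at -0.70, and Okazaki fragment joining and licensing at -0.56 each. CDC45 with GINS had -0.45, S phase entry -0.37, the clamp with its loader -0.36, polymerase alpha with primase -0.36 and RPA -0.18. The median over the 48 genes was -0.48, beside -0.08 over all genes tested.

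Ratios between 2 genes of the same library do not depend on how libraries are scaled to each other, and 12 pairs were compared after their values had been seen, so they are given without a test. POLD1 over POLD2 was 0.484, 0.372 and 0.365 in large and 0.843 and 0.877 in small follicle libraries. ORC1 over ORC6 was 0.138, 0.327 and 0.177 in large and 0.596 and 0.557 in small follicle libraries. Within these complexes the proportion of 1 subunit's RNA to another's differed between the groups in every library. MCM2 over MCM7 was 0.254, 0.342 and 0.238 in large and 0.470 and 0.419 in small follicle libraries. RRM2 over RRM1 was 0.172, 0.185 and 0.133 in large and 0.249 and 0.294 in small follicle libraries. The groups did not overlap in 8 of the 12 pairs, in each case with the lower ratio in large follicles. Every pair was written with the gene of the more negative log2 fold change first, so that shared direction follows from the choice of pairs. The 8 include POLE over POLE2, and POLE2 passed the filter through the small follicle libraries alone. That ratio barely separated, at up to 1.57 in large against 1.65 or more in small follicle libraries. TYMS over DUT barely separated too, at up to 0.126 in large against 0.131 or more in small follicle libraries. The groups overlapped for CHAF1A over CHAF1B, at a mean of 2.99 in large and 3.07 in small follicles, and for RFC5 over RFC2, PCNA over RFC2 and CDT1 over GMNN.

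**Figure D4:**
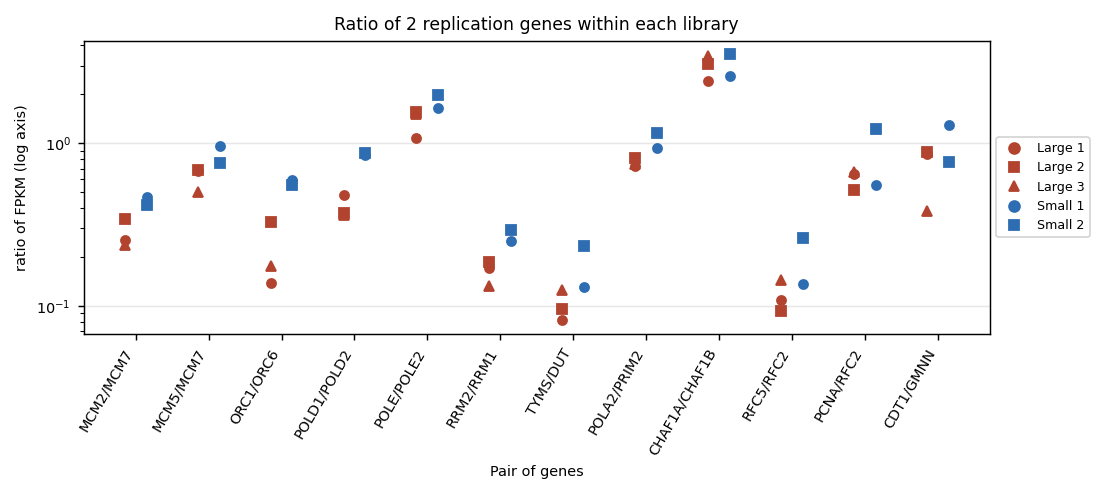
Ratio of the FPKM of 2 replication genes (log axis) in each of the 3 large and 2 small follicle libraries, for 12 pairs. Large follicle points lie below small follicle points in 8 pairs, among them POLD1/POLD2 and ORC1/ORC6. In every pair the gene with the more negative log2 fold change is written first.

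A second list held 41 further replication genes, of which 40 were analysed here and 36 tested. Limma called 0 of them, where 0.978% of all genes were called, with 8 lower and 0 higher at an unadjusted p under 0.05, against 5.67% and 4.76% of all genes. All large were below both small follicle libraries in 12, against 15.2% of all genes. Lower fitted values were found for 29 of the 36, against 60.1% of all genes, with a median log2 fold change of -0.27 beside -0.08. TOP2A, the topoisomerase that untangles replicated DNA, had 9.99, 4.52 and 11.3 FPKM in large against 13.0 and 26.7 FPKM in small follicle libraries (log2 fold change -1.12, SE 0.40, limma adjusted p = 0.340). ASF1B, a histone chaperone, had 5.42, 3.48 and 4.61 FPKM in large against 6.86 and 11.14 FPKM in small follicle libraries. DNMT1, the maintenance DNA methyltransferase, had 8.08, 8.75 and 10.5 FPKM in large against 12.4 and 20.6 FPKM in small follicle libraries. In these 3 genes, as in UHRF1 and RRM2, small follicle replicate 2 was the highest by a wide margin.

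TOPBP1, which helps fire origins, TOP1, which relaxes DNA, SUPT16H, a subunit of the histone chaperone FACT, CLSPN, a fork protection protein, and CHTF18, of an alternative clamp loader, also had groups that did not overlap. Their log2 fold changes were -0.78, -0.73, -0.72, -0.63 and -0.56. CLSPN passed the filter through the small follicle libraries alone, so its difference is a description. It is among the 8 lower at an unadjusted limma p, the 12 not overlapping and the 29 with lower fitted values. On the higher side, POLE4, a small accessory subunit of polymerase epsilon, had 94.4, 66.9 and 73.6 FPKM in large against 51.4 and 64.0 FPKM in small follicle libraries (log2 fold change 0.43, SE 0.22, limma adjusted p = 0.577). POLE4 ran opposite to POLE and POLE2, and its groups did not overlap. POLE3, of the same polymerase, went the other way (log2 fold change -0.36). It had 31.6, 21.6 and 29.8 FPKM in large and 31.7 and 39.4 FPKM in small follicle libraries, without overlap but with a small gap. POLD4, the small subunit of polymerase delta, and MCM8, a helicase of recombination, had 0.35 and 0.23 with overlap.

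In a list of 22 genes of cell cycle entry and arrest, 20 were tested and limma called 0, where 0.978% of all genes were called. At an unadjusted p under 0.05 limma had 1 lower and 0 higher, a share near the 5.67% of all genes that were lower. The median log2 fold change was -0.33, and 18 of the 20 had lower fitted values, against 60.1% of all genes. That 1 gene was E2F8, a repressor made in S phase, which is also among the 18. It had 0.942, 0.250 and 0.744 FPKM in large against 1.02 and 2.49 FPKM in small follicle libraries. Because E2F8 passed the filter through the small follicle libraries alone, its log2 fold change of -0.72 is a description. CCNA2, the cyclin of S phase, and RBL1, a pocket protein, had -0.77 and -0.76 with overlap. CDC25A, a phosphatase that activates CDK2, had 0.04. The row named CDK6 is annotated as a lncRNA and had 0.00, which need not be the level of the kinase mRNA. In a list of 10 mitosis genes, 9 had lower fitted values, with a median log2 fold change of -0.60, further from 0 than the -0.48 of the replication genes; limma called 0, with 2 lower at an unadjusted p under 0.05, and the mitotic kinase AURKA had 0.23. Of these, MKI67, a marker of cycling cells, had 5.89, 3.47 and 4.81 FPKM in large against 6.60 and 11.0 FPKM in small follicle libraries (log2 fold change -0.76, SE 0.32, limma adjusted p = 0.450), and CCNB1 and CDK1 had -0.64 and -0.25 with overlap.

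Markers of other cell types differed between the groups as well; of the lists given here limma called CYP17A1 (theca) and LYZ (myeloid) higher and INHBB (granulosa) lower, where 0.535% of all genes were called higher and 0.443% lower. Fitted values were higher in large follicles for 5 of 8 theca, 6 of 8 endothelial, 7 of 8 myeloid and 4 of 5 smooth muscle markers, and for all 6 lymphocyte, all 4 erythroid and 2 of 4 oocyte markers tested, against 39.9% of all genes. CD4 (lymphocyte) and AHSP (erythroid) passed the filter through the large follicle libraries alone. ZP2 (oocyte), which had a lower fitted value, passed it through the small ones alone. The directions of these genes are therefore a description. Of the lymphocyte markers, CD3D, CD8A and MS4A1 did not pass it and had lower means in large follicles. The summed FPKM of 8 theca markers was 1889 to 3942 in large and 786 to 1130 in small follicle libraries. The 8 myeloid markers summed to 327 to 442 in large and 257 to 282 in small, and 5 erythroid markers, among which SLC4A1 was listed at 0 in 3 libraries, to 1006 to 1680 in large and 234 to 703 in small follicle libraries. The sums of 8 endothelial markers were 335 to 425 in large and 288 to 305 in small follicle libraries, and those of 5 smooth muscle markers 3692 to 4488 in large and 3095 to 3110 in small. The 9 lymphocyte markers, with MS4A1 at 0 in 2 libraries, summed to 15.1 to 30.3 in large and 13.6 to 16.2 in small, and 5 oocyte markers to 31.8 to 49.7 in large and 23.3 to 32.8 in small follicle libraries. Granulosa markers went both ways: 6 of 10 had lower and 4 higher fitted values in large follicles, with sums of 5205 to 13271 FPKM in large and 3798 to 5257 FPKM in small, which overlapped. Single abundant genes dominate some sums, so the sums do not measure amounts of a cell type. In large follicle libraries INHA alone had 4474, 11739 and 6453 FPKM and HBB 1295, 1663 and 995 FPKM. The theca markers GLI1, PTCH1 and NR2F2 and the smooth muscle marker MYH11 had lower fitted values, at -1.02, -0.63, -0.32 and -0.77. The part of these cell types in the lower replication values was not tested.

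Library totals, worked back from the steps of the FPKM values, were 9523739 to 11507527 fragments. Replication genes together held 13188, 8606 and 11064 of them in large and 12194 and 17038 in small follicle libraries. Single genes had between 9 and 1255 fragments in a library, so counting error is largest for POLE2, CDC6, GINS1 and CCNE1.

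Across the 17 fits of these data the median log2 fold change of the replication genes was below that of all genes tested. The difference between the medians was -0.39 with all libraries on log2(FPKM + 1), -0.40 with median-of-ratios scaling and -0.41 with quantile normalization. With small follicle replicate 2 left out, the replication genes had a median of -0.27 and all genes 0.09. Without that library and large follicle replicate 2, the libraries at the ends, the medians were -0.24 and 0.19, with 35 of 48 replication genes lower, against 32.8% of all genes.

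**Figure D5:**
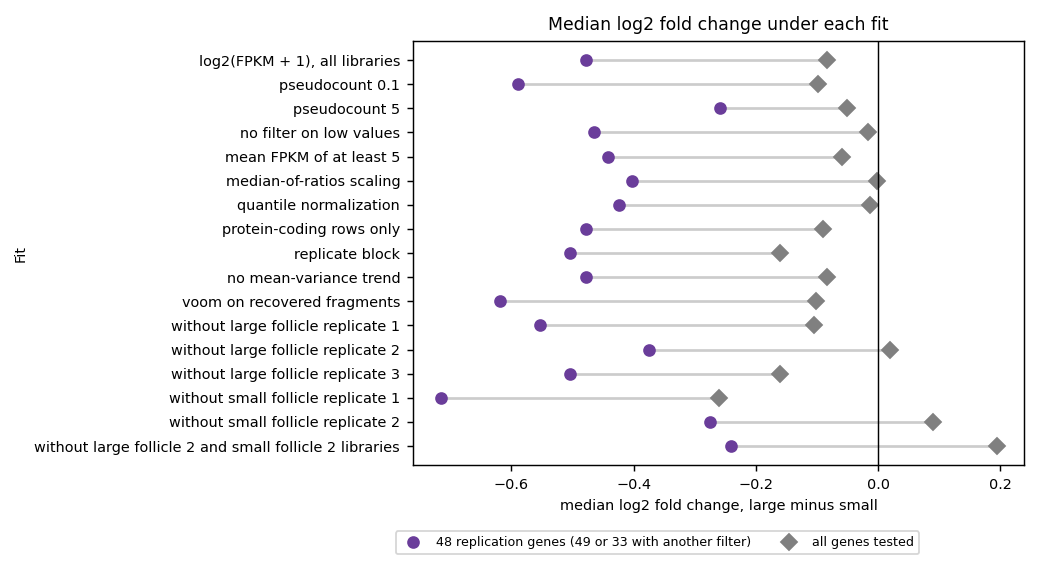
Median log2 fold change, large minus small follicles, of the replication genes (circles) and of all genes tested (diamonds) under each of 17 fits. The circle lies left of the diamond in every fit, with a distance of -0.39 in the fit of all libraries on log2(FPKM + 1).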

How the data were processed

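Per the labels' protocols, TRIzol RNA was made into paired-end libraries with a stranded mRNA kit. The authors deposited 1 table of FPKM values per library. Per the submitters' processing notes, which state no order, the build was Sscrofa11.1 and the tools included the aligner HISAT2 2.0.5 and featureCounts 1.5.0-p3. The strand setting of the counting is not stated there. Groups and replicate numbers came from the titles.

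Library totals and fragments were worked back from the FPKM steps: of 23353 genes above 0, 49.5% gave whole fragments, within 0.001, with the listed gene length, 11759 with a shorter length found by search and 32 with none. No 2 libraries of 1 group agreed within sampling noise (chi-square per degree of freedom 28.5 to 51.9). Libraries did not pair off by group on this measure. Large follicle replicate 3 with small follicle replicate 2 had 34.0, and large follicle replicate 2 with small follicle replicate 1 had 42.9. The other pairs across groups had 59.1 to 87.1.

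The test was fitted in R 4.3.3 by limma 3.58.1 with its trend option. Follicle size was the sole term, and p-values were Benjamini-Hochberg adjusted over 13087 genes. The fit was first tested on simulated data. The pseudocount of 1 shrinks the differences of low genes. Values after ± are SDs. Symbols, gene lists and roles were chosen with earlier results of these data known. Per-library values were given for the most abundant gene of each role, genes whose groups did not overlap and the 5 smallest p in each direction, and for further genes where noted. All 49 identifiers matched the RefSeq gene table of Sscrofa11.1, which gave chromosomes. TIMELESS and OOSP2 were not analysed here. Alternatives were other pseudocounts (0.1, 5), other filters on low values, 2 scalings, protein-coding rows, a replicate block, no trend, limma voom on fragments and each library left out; leaving out 2 libraries together was chosen after seeing the data.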

Additional observations from a re-analysis of the deposited data

How the results depend on the processing

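The cause of each shift was not tested. Limma called 0 replication genes in 15 of 17 fits and 1, POLE, in each of the other 2, by median of ratios and by quantiles. Over all genes it called 128, but 32 with no filter, 41 at a mean FPKM of at least 5, 202 when scaled by median of ratios, 201 when quantile normalized, 82 for protein-coding rows, 69 with voom, 29 to 268 with each library left out and 509 without both libraries numbered 2. The 18 replication genes lower at an unadjusted limma p under 0.05 were 11 at a mean FPKM of at least 5, where 33 were tested, against 4.94% of all genes. They were 10 to 14 with each large follicle library left out, against 3.66% to 7.14% of all genes. For this comparison, the fits that leave 1 small follicle library are given by their medians below. Between 42 and 48 of the 48 had lower values with each library left out, against 39.97% to 72.59% of all genes. With each large follicle library left out, 0 of the 48 were called. Their median log2 fold change of -0.48 was -0.72 to -0.27 with each library left out and -0.24 without both libraries numbered 2; minus that of all genes it was -0.46 to -0.34 with each library left out. A pseudocount of 5, which shrinks all differences, gave -0.26 as the median, and 0.1 gave -0.59.

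The replicate block, with replicate number as a term, called 157 genes and 0 replication genes and gave a median of -0.50. It had 5 replication genes lower at an unadjusted limma p under 0.05, all 5 among the 18, against 3.50% of all genes. The block sets large follicle replicate 3 aside. The labels do not say that equal numbers pair samples, and deviations from the group means correlated at -0.45 across genes between the libraries numbered 2. DUT had 0.067 with the block.

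Other signs turned too. With median-of-ratios scaling, POLD2 had 0.015, RFC2 0.058 and DUT 0.0091, and POLD2 had 0.0028 with quantile normalization. Without both libraries numbered 2, the log2 fold changes were 0.63 for GMNN, 0.59 for CCNE2, 0.35 for CDC45, 0.26 for RRM1, 0.15 for GINS1, 0.14 for PRIM1, 0.12 for RFC1, 0.073 for RPA2, 0.020 for MCM7 and 0.0020 for DUT. With each library left out, ranges crossed 0 for ORC6 (-0.077 to 0.45), GMNN (-0.61 to 0.35), GINS3 (-0.10 to 0.12), RFC2 (-0.27 to 0.20), RPA3 (-0.024 to 0.25), RRM1 (-0.53 to 0.11), DUT (-0.40 to 0.079) and CCNE2 (-0.97 to 0.22).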
